A study of Danio rerio with 697 samples.

Results

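The genes described here code for the proteins of the cytosolic ribosome. They were taken from the count table by symbol, ignoring case: *rpl* or *rps* followed by a digit, *rpsa*, *rplp0*, *rplp1*, *rplp2* or *rplp2l*, without kinases of the *rps6k* family and without mitochondrial ribosomal proteins. This gave 84 members of 32520 genes, 47 named for the large subunit or its stalk and 37 for the small subunit. The names came from a table that gives many zebrafish genes a human-style symbol, so *RPS4Y2* or *RPL36AL* below are zebrafish genes. *RPSA2*, *FAU*, *faub* and *RACK1*, among others, fall outside the rule by their names. *rps19bp1* falls inside it, although it codes for a protein that binds a ribosomal protein and not for a subunit.

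The cells were sorted from dissected pancreatic tissue of zebrafish larvae at 5 days post fertilization (dpf) as GFP-positive and stained with calcein, a dye of living cells, and profiled by Smart-seq2 with 1 cell per well. In CSN24 the larvae had both transgenes, *Tg(ins:TRPV)* and *Tg(ins:Kaede)*, and were given capsaicin (csn) for 24 h. Larvae of this genotype in CSN48-1 and CSN48-2 were given csn for 48 h, and the sources used here do not explain how these 2 sets differ. Ctrl larvae had *Tg(ins:Kaede)* alone and were also given csn for 48 h. The labels put the start of csn at 4 dpf in CSN24 and at 3 dpf in the other groups, with all cells taken at 5 dpf. The study's text gives a start at 3 dpf for both durations, so the age of CSN24 cells is not certain. The insulin promoter drives both transgenes: the csn-gated channel TRPV lets calcium into beta cells when csn is present, and Kaede is the fluorescent protein used for sorting. By the study's design, 20 larvae were used for each treatment, and their tissue was pooled. Ctrl cells were on plate 1, CSN24 cells on plate 2 and both 48-h sets on plate 3, so treatment, genotype and plate cannot be told apart. The larva behind a cell is not labelled, so a group counts as 1 sample (n = 1) and groups were not tested against each other. Differences are given as sizes, with intervals of counting error alone.

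Of 693 wells, 650 had 200 genes or more and no more than 40% of counts on mitochondrial protein-coding genes, and were kept. Among them, 540 had over 1000 *ins* counts and are called ins-high. The remaining 110, called other wells, number 14 in CSN24, 56 in CSN48-1, 34 in CSN48-2 and 6 in Ctrl. The limit fell between wells with 934 and 1152 *ins* counts, and 21 wells had between 500 and 2000. Counts on genes per kept well ran from 1486 to 1084018. The labels call all cells beta cells. The other wells were divided by marker genes and depth. There were 32 pigment-gene wells, of any depth, and outside these 33 shallow wells with under 50000 counts. There remained 27 endocrine wells with over 1000 counts of a glucagon or somatostatin gene, and 18 that are none of these. The median share of *ins* was 11.3% in ins-high wells, 0.0635% in pigment-gene wells, 0.0650% in endocrine wells and 0.0734% in the 18. The limit on *ins* counts itself holds this share low in deep wells, so the share does not tell whether they held beta cells. Whether the label of beta cells holds for them was not tested. In shallow wells the median share of *ins* was 6.43%. These fell under the limit at totals of 1486 to 28281 counts, so the limit alone does not tell whether they held beta cells. Spike-in RNAs, added to the wells, took a median of 59.8% of counts on genes and spike-ins in shallow wells and 0.172% in ins-high wells. A well labelled NC, which belongs to no group, had 3617 counts on genes, 314 of them on *ins*, and 4320 on spike-ins. What the shallow wells hold was not tested.

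A ribosome joins a large and a small subunit, each built from ribosomal RNA and many proteins, nearly all present in a single copy per ribosome. Their genes are among the most transcribed in growing cells. In vertebrates their mRNAs begin with a tract of pyrimidines that links their translation to the mTOR pathway, and secretory cells such as beta cells depend on a large stock of ribosomes to make hormone.

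Members took more of the counts in csn-treated cells that carry the channel than in Ctrl cells, but only modestly so. In ins-high wells the pooled share was 6.49% in CSN24 (95% interval 6.48 to 6.49%), 6.56% in CSN48-1 (6.55 to 6.57%), 5.61% in CSN48-2 (5.60 to 5.61%) and 5.42% in Ctrl (5.42 to 5.43%). The ratio to Ctrl was 1.197 for CSN24, 1.21 for CSN48-1 and 1.03 for CSN48-2. The difference between both 48-h sets, a ratio of 1.17 for CSN48-1 over CSN48-2, was nearly as large as the largest difference from Ctrl. Single wells ran from 0.0978% through a median of 6.14% to 14.4% in CSN24, from 1.96% through 6.17% to 17.6% in CSN48-1, from 1.35% through 5.40% to 10.6% in CSN48-2 and from 0.533% through 5.19% to 13.0% in Ctrl. The wells of all 4 groups overlapped over most of their range.

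The direction of this difference depended on what the counts were set against. Counted per spike-in RNA, members stood at 16.8 counts in CSN24, 14.2 in CSN48-1, 20.1 in CSN48-2 and 28.4 in Ctrl, so that all 3 log2 ratios turned negative, between -0.999 and -0.497. Spike-ins took a median of 0.241% of counts on genes and spike-ins in CSN24 ins-high wells, 0.303% in CSN48-1, 0.153% in CSN48-2 and 0.102% in Ctrl. In the median well, counts on genes as a whole were thus also fewer per spike-in than in Ctrl, so this fall is not particular to members. Heat shock genes, 14 genes grouped after their values were seen, moved with the groups. Their median share of an ins-high well was 6.04% in CSN24, 3.78% in CSN48-1, 6.26% in CSN48-2 and 14.4% in Ctrl. With these genes left out of the total, the log2 ratio of the members' share fell to 0.13 for CSN24, 0.12 for CSN48-1 and -0.09 for CSN48-2, against 0.26, 0.27 and 0.05 with all genes. Their part in the difference was otherwise not tested.

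**Figure D1:**
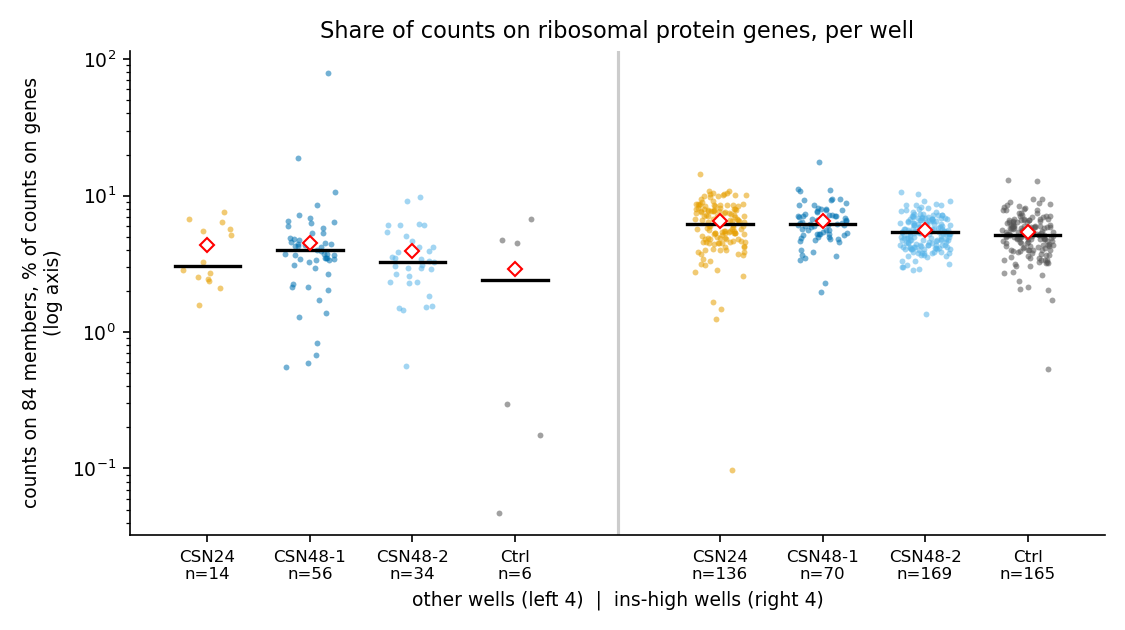
Share of the counts on genes that fell on the 84 members (y axis, percent, log axis) in each kept well, by group, with other wells on the left and ins-high wells on the right. Points are wells, black bars are medians over wells and red diamonds are pooled shares; ins-high wells have medians between 5.19 and 6.17% and other wells between 2.39 and 3.98%.

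Within a well, most members were either abundant or nearly absent from the counts. Of the 45360 values of a member in an ins-high well, 20.6% were 0, 37.1% were 1 to 9 counts, 7.08% were 10 to 99 counts and 35.1% were 100 counts or more. On the scale of CPM (counts of a gene per 1000000 counts on genes), the values formed 2 humps with a trough near 100 CPM. The 38.1% of values at or above 100 CPM held 99.5% of the counts on members, and their median was 1203 CPM. The well labelled NC held 5.06% of its 3617 counts on members, spread over 52 of them, 49 with 1 to 9 counts. Low counts were not particular to members. Taken within each group were genes that passed the filter on detection given below. Values of 1 to 9 counts made up 55.6% of values with a count for 81 members in CSN24, and 72.0% for other genes. In CSN48-1 these were 42.4% and 72.4%, in CSN48-2 44.1% and 65.9%, and in Ctrl 44.2% and 69.3%. Members and other genes were not matched in level. What the low counts are was not tested. A member with at least 1 count is therefore a weak sign of expression, and the number of members at 100 CPM or more, a limit set after the values were seen, is given beside it.

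**Figure D2:**
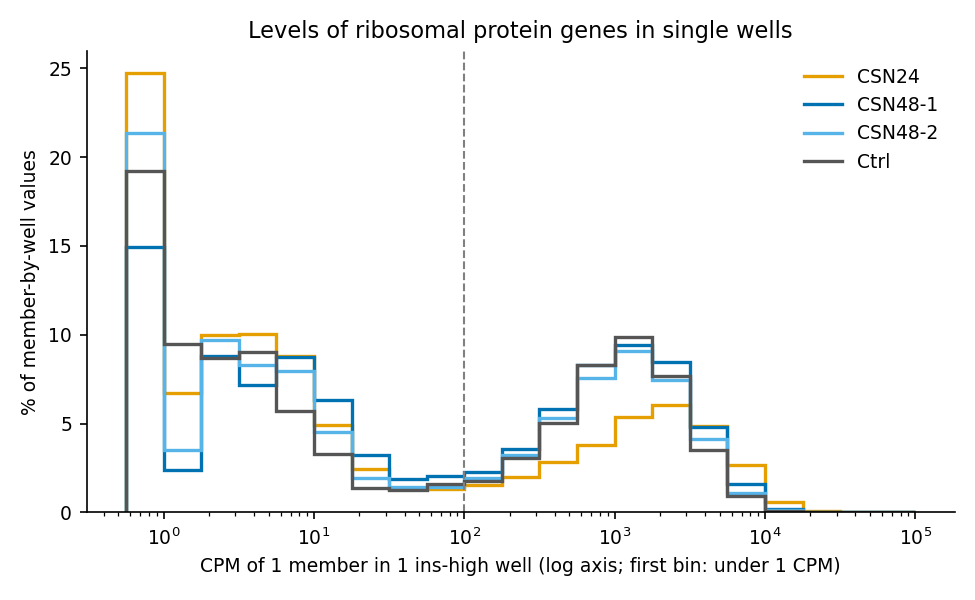
Levels of single members in single ins-high wells (x axis, CPM, log axis; the first bin holds values under 1 CPM) against the percentage of all member-by-well values of the group (y axis). In all 4 groups the values form a low hump below about 20 CPM and a high hump around 1000 CPM. A trough lies near the dashed line at 100 CPM. The high hump of CSN24 is lower and lies further right. Other genes are not drawn, so the shape is not read as particular to members.

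CSN24 wells had fewer members at a high level, and most members stood higher in the wells where they reached it. A CSN24 ins-high well had a median of 23 members at 100 CPM or more (0 to 70), against 35 in CSN48-1 (7 to 69), 31 in CSN48-2 (9 to 69) and 33 in Ctrl (6 to 74). The median level of these members was 1687 CPM in CSN24, 1150 CPM in CSN48-1, 1119 CPM in CSN48-2 and 1120 CPM in Ctrl. Taken member by member, 76 of the 81 members with enough counts reached 100 CPM in a smaller share of wells in CSN24 than in Ctrl, by a median of 11.3 percentage points, and 73 had a higher median level in the wells that reached it. Both held for 68 members. In CSN48-1, 20 of 81 reached 100 CPM in a smaller share of wells than in Ctrl and 60 in a larger one, and in CSN48-2 these were 43 and 38. The same counts over all genes were not computed, so none of these is read as particular to members.

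The fewer abundant genes of CSN24 cells were not limited to ribosomal proteins. Genes outside the members at 100 CPM or more numbered a median of 136.5 per well in CSN24 and 196.5 in CSN48-1, and about 200 in CSN48-2 and Ctrl, and their median level was 2176 CPM in CSN24, 1310 in CSN48-1, 1348 in CSN48-2 and 1932 in Ctrl. In wells with at least 1000 detected genes, the members at 100 CPM numbered 26 in CSN24, 35 in CSN48-1, 33 in CSN48-2 and 33.5 in Ctrl. In wells with at least 300000 counts the medians were 23.5, 34.5, 31 and 33. CSN24 is the only group on plate 2, so that group and plate cannot be told apart in these values.

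**Figure D3:**
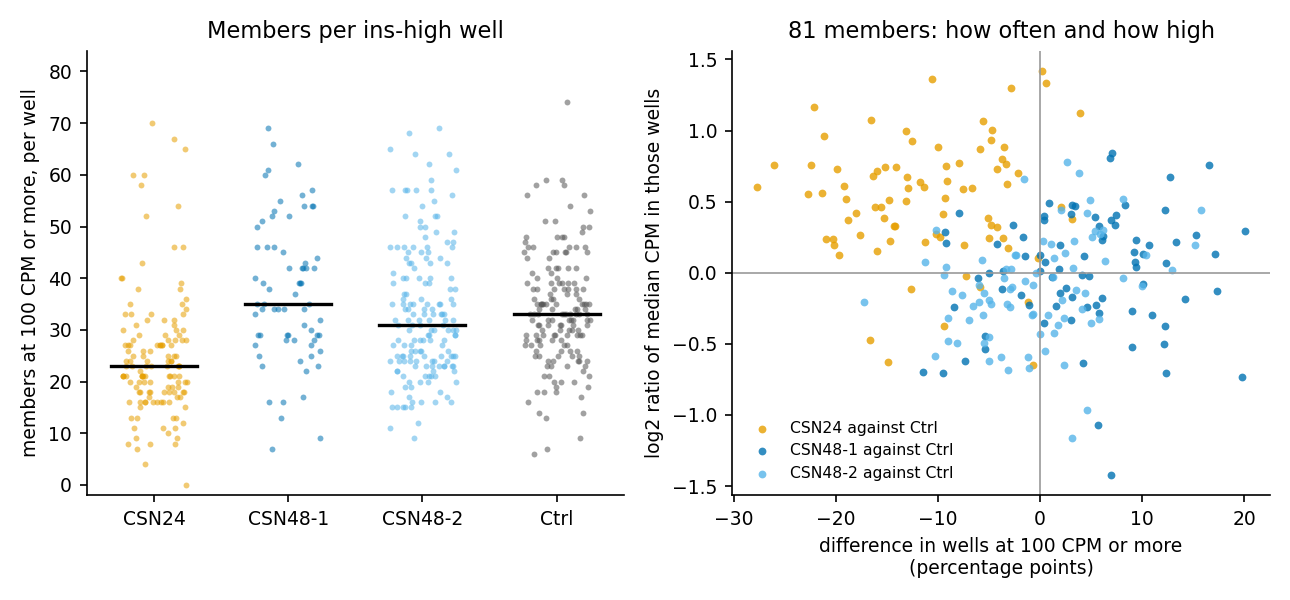
Left, number of members at 100 CPM or more in each ins-high well (y axis) by group, with medians of 23, 35, 31 and 33 as black bars. Right, for 81 members, the difference from Ctrl in the share of wells that reached 100 CPM (x axis, percentage points) against the log2 ratio to Ctrl of the median CPM in those wells (y axis); 68 points of CSN24 lie at the upper left, with fewer wells and a higher level.

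By the plain measure of at least 1 count, the difference was small before wells were brought to a common depth. The median ins-high well had 64 members with a count in CSN24 (30 to 81), 72 in CSN48-1 (55 to 79), 67 in CSN48-2 (39 to 80) and 68 in Ctrl (45 to 82). Such numbers depend on depth, but their order across groups did not follow it. Median depth was 524765 counts in CSN24, 414542 in CSN48-1, 452950 in CSN48-2 and 659446 in Ctrl. CSN48-1 thus had the lowest median depth and the most members. After each well was thinned to 50000 counts, which left out 1 CSN24 well and 1 CSN48-1 well, the medians were 35, 48, 41 and 42. Thinned to 200000 counts they were 50, 64, 57 and 54. The order of CSN24 and CSN48-1 at either end stayed the same under both depths.

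The most abundant member in CSN48-2 and Ctrl was *rps20*, a small subunit protein that in mammals is ubiquitinated when ribosomes collide, with 2928 CPM in CSN24, 2822 in CSN48-1, 2596 in CSN48-2 and 2739 in Ctrl (interval in Ctrl 2729 to 2749). Its GRCz11 position is chromosome 7, 58745987 to 58750400. It had a count in every ins-high well of CSN48-1, CSN48-2 and Ctrl and in 99.3% of those of CSN24, and reached 100 CPM in 69.9%, 78.6%, 86.4% and 87.9% of the wells of the 4 groups in the same order. *RPL19*, a large subunit protein on chromosome 3, came first in CSN24 with 3712 CPM and in CSN48-1 with 3342 CPM, and had 2553 in CSN48-2 and 2613 in Ctrl. *rps27.1*, a zinc-binding small subunit protein, had 2617, 2607, 2492 and 2231 CPM in these groups.

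Other members among the 10 most abundant in Ctrl included *RPL3*, which lies near the peptidyl transferase centre, *rpl32*, *RPS2*, *RPS4Y2*, *RPL7* and *RPL18*. *RPL3* had 2065 CPM in CSN24, 1791 in CSN48-1, 1325 in CSN48-2 and 1940 in Ctrl. *rpl32* had 2095, 1909, 2553 and 1787 CPM in these groups. *RPS2* had 1495, 1873, 1263 and 1637 CPM, and *RPS4Y2* had 1907, 1491, 1435 and 1554 CPM. *RPL7* had 1429, 1270, 1269 and 1311 CPM, and *RPL18* had 1629, 1346, 1294 and 1293 CPM. None of the 10 passed 1.5-fold in either direction in any group against Ctrl. The 10 most abundant members of each group made up between 31.5 and 34.2% of its counts on members. Over all 84 members, the median was 519 CPM in CSN24, 599 in CSN48-1, 481 in CSN48-2 and 456 in Ctrl. Members with a count in over 95% of ins-high wells numbered 7 in CSN24, 26 in CSN48-1, 19 in CSN48-2 and 23 in Ctrl, and members at 100 CPM or more in over 50% of wells numbered 11, 28, 24 and 29.

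Per length of exon, the order changed. In Ctrl, *rps20* had 5238 CPM per kb, *rps27.1* 3795, *rpl32* 3483 and *RPL19* 2680, whereas *RPL3* had 1143 and came 10th. Exon lengths ran from 346 to 4959 bases with a median of 1206.5, and the longest, that of *RPS9*, is a union of all annotated exons, so the level per length of such genes is understated. Over the 84 members, CPM in Ctrl and exon length had a Spearman correlation of 0.00, across genes that are not independent. No exon of 63 members overlaps another gene, whereas 15 members share exon bases with a gene on the same strand and 12 with a gene on the opposite strand. The strand setting of the counting is not given in the sources used here, so counts of these members may include their neighbours. Members lay on all 25 chromosomes, with at most 7 on any of them.

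The 47 large subunit members took more counts than the 37 small subunit members in every group, about in proportion to their number or a little above it. The pooled ratio in ins-high wells was 1.38 in CSN24, 1.28 in CSN48-1, 1.34 in CSN48-2 and 1.27 in Ctrl, and the median over wells was 1.40, 1.36, 1.39 and 1.30. Single wells ran from 0.362 to 21.6 in CSN24, where the highest value exceeded those of CSN48-1 (11.6), CSN48-2 (3.84) and Ctrl (5.71). The member with the most counts in a well held a median of 13.1% of that well's counts on members in CSN24, 9.64% in CSN48-1, 10.4% in CSN48-2 and 10.8% in Ctrl.

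Between cells, members varied less than other genes of the same level. After thinning to 50000 counts, the 45 members with 300 to 1000 CPM in Ctrl had coefficients of variation (SD over mean) between 1.05 and 2.91 with a median of 1.69, against a median of 3.02 over other nuclear genes in that range. In CSN48-2 the medians were 1.81 over 44 members and 3.08 over other genes. In CSN48-1 they were 1.85 over 46 members and 3.11 over other genes, and in CSN24 they were 2.39 over 53 members and 3.95 over other genes. These are descriptions of wells of 1 sample each, and CSN24 wells varied most.

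Fold changes were taken as the log2 ratio of pooled CPM plus 1 CPM between ins-high wells, over genes with a count in at least 25% of the wells of either group. Of the 84 members, 81 qualified, and *rps19bp1* and *RPL7L1* were among the exceptions. The 3 comparisons share the Ctrl wells. Ratios of members lay in a narrow band: their quartiles in CSN24 were 0.10 and 0.52, and those of all genes tested -0.83 and 0.72. In CSN24 over Ctrl, 20 of 81 members were over 1.5-fold higher, where 29.3% of all 1125 genes tested were, and 3 were over 1.5-fold lower, where 30.7% of all genes were. In CSN48-1 over Ctrl, 19 were higher, against 37% of 1447 genes, and 2 were lower, against 27.9%. In CSN48-2 over Ctrl, 9 were higher, against 28.2% of 1227 genes, and 6 were lower, against 27.9%. Counts higher were thus below the share over all genes in each comparison, and counts lower were far below it. All genes tested are not matched to members in level. Among genes with a count in at least 25% of Ctrl ins-high wells, the median member reached 100 CPM in 38.8% of them. The median other gene did so in 7.27%.

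The median log2 ratio of members was 0.26 in CSN24, 0.36 in CSN48-1 and 0.03 in CSN48-2, and that of all genes tested was 0.09, 0.25 and 0.04. Relative to all genes, members stood 0.17 higher, 0.12 higher and 0.01 lower (-0.01). Centred in this way, the counts of members higher were 11, 9 and 5, and those lower were 3, 4 and 7. With heat shock genes left out of the total, 9 members were higher and 4 lower in CSN24, 14 and 3 in CSN48-1, and 4 and 11 in CSN48-2. In 41 members none of the 3 ratios passed 1.5-fold. Shares over all genes were not computed for the centred counts, those without heat shock genes or these 41, so none is read as particular to members. Both subunits took part: the median was 0.30 for large and 0.24 for small subunit members in CSN24, 0.35 and 0.38 in CSN48-1, and 0.13 and -0.08 in CSN48-2.

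**Figure D4:**
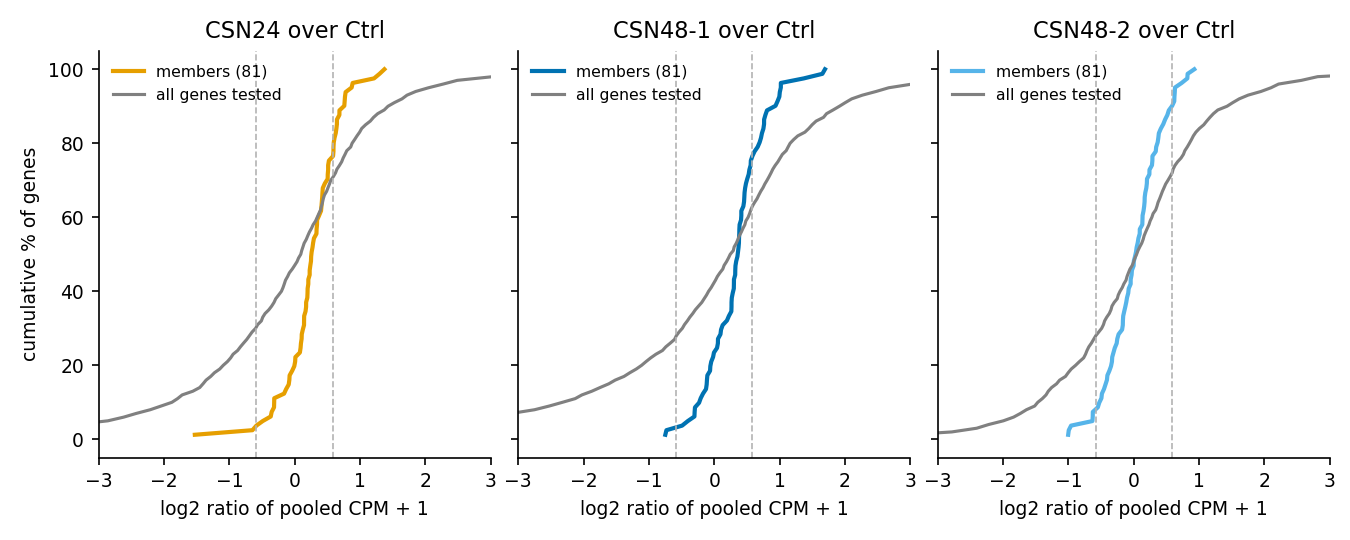
Cumulative percentage of genes (y axis) by log2 ratio of pooled CPM plus 1 in ins-high wells (x axis), for the 81 members tested (coloured) and all genes tested (grey), in CSN24, CSN48-1 and CSN48-2 over Ctrl. Dashed lines mark 1.5-fold; members form a steep curve with medians of 0.26, 0.36 and 0.03 inside the wide curve of all genes.

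The 48-h sets share a plate and a treatment, and were also set against each other. In CSN48-1 over CSN48-2, 22 of 81 members were over 1.5-fold higher, against 33% of 1462 genes, and 3 were lower, against 26.7%, namely *RPL23A* (-0.94), *RPL17* (-0.78) and *rpl7a* (-0.60). The median of members was 0.29 and that of all genes 0.17. CSN24 and CSN48-1 over Ctrl gave 20 and 19 members higher.

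In CSN24 the largest rises were those of *RPL36AL* (log2 ratio 1.37), *RPS10* (1.30), *RPL38* (1.21), *RPL27* (0.89) and *RPS29* (0.87). *RPS10*, a small subunit protein near the entry of the mRNA channel, had 399 CPM in CSN24, 525 in CSN48-1, 169.7 in CSN48-2 and 161.4 in Ctrl. It reached 100 CPM in 16.9%, 32.9%, 14.8% and 16.4% of wells, at a median of 1469, 984, 918 and 582 CPM in those wells. The higher pooled level of CSN24 thus went with a higher level in about as many cells, and that of CSN48-1 with more cells as well. *RPL38*, a large subunit protein that in mice is needed for the translation of Hox mRNAs, had 470.5 CPM in CSN24, 294 in CSN48-1, 314 in CSN48-2 and 202.1 in Ctrl, and reached 100 CPM in 39.7%, 52.9%, 51.5% and 35.8% of wells. *RPL36AL* had 272, 210.3, 160.9 and 104.4 CPM in these groups. These 5 ratios were between 0.76 and 1.36 when the well with the most counts of each gene was left out of each group.

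The largest falls in CSN24 included those of *RPL14* (-1.53), *RPS6* (-0.65), *RPL10* (-0.59) and *RPS12* (-0.37), of which the first 3 passed 1.5-fold. *RPL14* had 74.8 CPM in CSN24 (interval 72.9 to 76.9), 234 in CSN48-1, 175.4 in CSN48-2 and 217.7 in Ctrl (214.9 to 220.5). It reached 100 CPM in 8.82% of CSN24 wells, 30.0% of CSN48-1 wells, 22.5% of CSN48-2 wells and 25.5% of Ctrl wells. *RPS6*, the small subunit protein phosphorylated by S6 kinase, had 482 CPM in CSN24, 613 in CSN48-1, 617 in CSN48-2 and 755 in Ctrl. *RPL10*, which joins the large subunit late in its assembly, had 488, 918, 750 and 733 CPM. Of the 81 members, *RPL14* alone was more than 2-fold lower in CSN24. Over all genes tested, which are not matched to members in level, the 21st percentile of this log2 ratio was -1.03.

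In CSN48-1 the largest rises were those of *RPS10* (1.70), *RPL22L1* (1.66), *RPS25* (1.37), *RPS26* ENSDARG00000037071 (1.02) and *RPLP0* (1.02), and in CSN48-2 those of *RPS21* (0.93), *RPS29* (0.82), *RPL22L1* (0.82), *RPS26* ENSDARG00000037071 (0.73) and *RPL38* (0.63). *RPS25*, which in mammals serves initiation at viral internal entry sites, had 343 CPM in CSN24, 731 in CSN48-1, 386 in CSN48-2 and 282 in Ctrl. *RPS21* had 853, 834, 1221 and 642 CPM, and *RPS29*, a small zinc-binding protein, had 587, 527, 568 and 320 CPM. *RPS26* ENSDARG00000037071, which lines the mRNA exit channel, had 403, 714, 585 and 352 CPM. *RPS29* was over 1.5-fold higher in all 3 comparisons, each against the same Ctrl wells, as were *RPL36AL* and *RPL22L1*. Without the top well, *RPL22L1* came below 1.5-fold in CSN24, as described below. The share of all genes higher in all 3 was not computed, so this overlap is not read as particular to members.

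The largest falls in CSN48-1 included those of *RPL15* (-0.75), *rpl7a* (-0.73), *RPL17* (-0.49) and *RPL23A* (-0.40), and only *RPL15* and *rpl7a* passed 1.5-fold. *RPL15* had 1004 CPM in CSN24, 532 in CSN48-1, 579 in CSN48-2 and 894 in Ctrl. A single CSN48-1 well held 32.5% of its counts in that group, and without the top well of each group its ratio was -1.24. *rpl7a* had 830.3, 621, 943.5 and 1032 CPM. Without the top wells, members that came below 1.5-fold included *RPL21* in CSN48-2 and *RPL22* in CSN24, at -0.53 and 0.56. In CSN24, 13 members were over 1.5-fold higher in this way, against 20 with all wells. In CSN48-2 the largest falls included those of *RPL24* (-1.004), *RPLP0* (-0.99), *RPL22* (-0.96), *RPL21* (-0.63) and *RPL15* (-0.63). *RPL24* had 307 CPM in CSN24, 280 in CSN48-1, 151.6 in CSN48-2 and 305 in Ctrl, and *RPL21* had 715, 590, 381 and 591 CPM.

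Among the members that passed the filter on detection, *RPLP0*, the scaffold of the stalk that recruits elongation factors, differed most between the 48-h sets. It had 415 CPM in CSN24, 846 in CSN48-1, 208.6 in CSN48-2 and 417 in Ctrl, a log2 ratio of 2.01 between the sets. It reached 100 CPM in 19.9% of CSN24 wells, 41.4% of CSN48-1 wells, 20.7% of CSN48-2 wells and 27.3% of Ctrl wells, at median levels of 1493, 1147, 1108 and 1302 CPM in those wells. The stalk proteins that bind to it differed less between the 48-h sets, with log2 ratios of 0.12 for *RPLP1*, 0.23 for *rplp2* and 0.14 for *rplp2l*. *rplp2* had 849.9, 683, 584 and 788 CPM in these groups.

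Zebrafish keep several ribosomal protein genes in more than 1 copy. Members whose symbols are shared or differ only in a short ending made up 9 sets. The genes of a set are called copies here by name alone, and some are relatives, as *RPL7L1* is of *RPL7*. *RPL22L1*, the paralog of the large subunit protein *RPL22*, held 31.2% of the counts of the pair in CSN24, 48.8% in CSN48-1, 58.9% in CSN48-2 and 29.2% in Ctrl. *RPL22L1* had 126.1 CPM in CSN24, 232 in CSN48-1, 129.7 in CSN48-2 and 73.01 in Ctrl, and *RPL22* had 278, 243, 90.6 and 177.03 CPM. Few cells carried the paralog: *RPL22L1* reached 100 CPM in 9 CSN24 wells, 10 CSN48-1 wells, 20 CSN48-2 wells and 12 Ctrl wells, or 6.62, 14.3, 11.8 and 7.27% of the ins-high wells of each group. A single CSN24 well held 36.4% of its counts there, and without the top well its log2 ratio to Ctrl fell to 0.42 in CSN24, against 0.78 with it.

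*rplp2l*, the lesser copy of the acidic stalk protein, held 25.5% of the pair in CSN24, 33.4% in CSN48-1, 34.7% in CSN48-2 and 23.7% in Ctrl. The *RPL5* copies, whose protein also binds Mdm2 in mammals, were near balance, with 51.8, 55.03, 49.03 and 48.997% in these groups for ENSDARG00000015862 on chromosome 6. Of the *RPS26* copies, ENSDARG00000037071 held 48.9, 59.01, 57.3 and 52.9%. Among the genes named *rps27*, *rps27.1* held 80.2, 78.9, 85.03 and 81.2%, *rps27l* 10.4, 14.9, 10.2 and 11.7%, and *rps27.2* 9.41, 6.17, 4.76 and 7.13%. Reads that match both copies of a set could be split or lost by the counting, so these shares are uncertain.

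**Figure D5:**
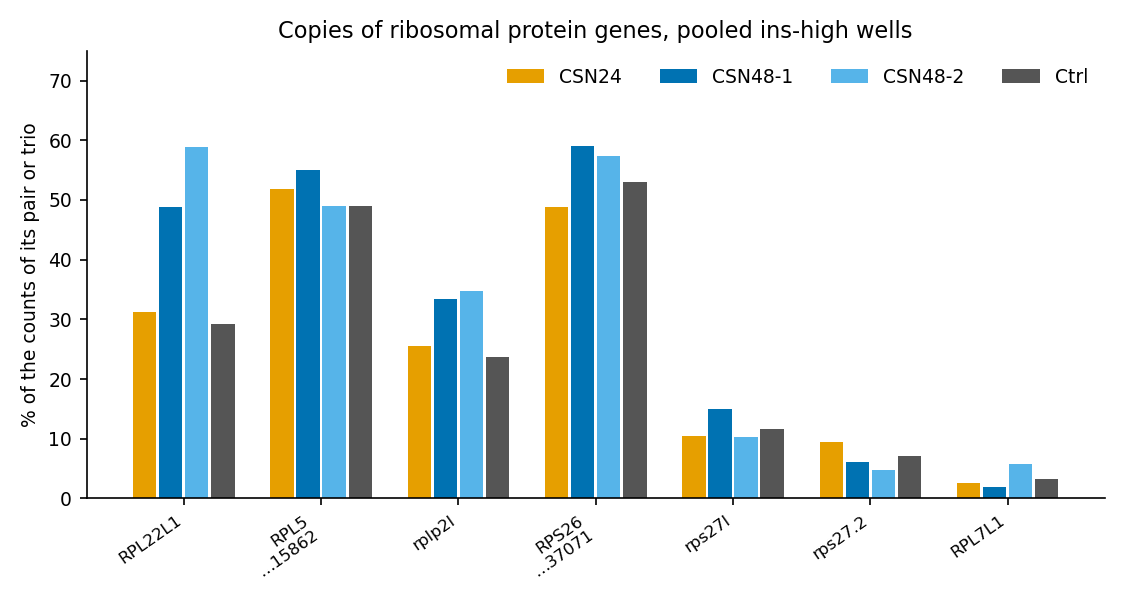
Share of each gene in the counts of its pair or trio (y axis, percent) in pooled ins-high wells of CSN24, CSN48-1, CSN48-2 and Ctrl. Sets were formed by symbol alone. Drawn are 1 gene of each pair and both lesser genes of the *rps27* trio, for 6 of the 9 sets. *RPL22L1* stands at 31.2, 48.8, 58.9 and 29.2%, and *RPL5* ENSDARG00000015862 stays between 48.997 and 55.03%.

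Members outside the comparison included *RPL7L1* and *rps19bp1*. *RPL7L1*, which codes for a relative of RPL7, had 38.5 CPM in CSN24, 24.9 in CSN48-1, 77.2 in CSN48-2 and 44.2 in Ctrl. A single well held 96.8% of these counts in CSN24, 98.3% in CSN48-1, 30.1% in CSN48-2 and 70.7% in Ctrl. *rps19bp1* had 0.0419, 198.7, 0.161 and 11.01 CPM, of which a single well held 66.7%, 76.2%, 23.1% and 98.5%. Both genes were thus found at a high level in very few cells, 3 for *rps19bp1* and 12 for *RPL7L1* among the 540 ins-high wells. No member had a count in under 5% of ins-high wells.

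Lists of other genes of translation were set beside members. Of the 40 matched genes known in mammals to carry the same tract of pyrimidines, mostly translation factors, 20 were tested in CSN24, with 5 higher and 3 lower and a median log2 ratio of -0.04. Those higher were *eef1da* (2.41), *pabpc1a* (2.02), *EEF1B2* (1.002), *EIF3H* (0.72) and *eif3ea* (0.62), and those lower were *EEF1D* (-1.32), *EEF1G* (-0.82) and *eef2b* (-0.59), genes of elongation and initiation factors and of a poly(A)-binding protein. In CSN48-1, 10 of 25 were higher and 2 lower with a median of 0.30, and in CSN48-2, 6 of 23 were higher and 4 lower with a median of -0.19. Of 75 mitochondrial ribosomal protein genes, few passed the filter on detection: in CSN24 2 of 4 were higher (*MRPS30*, 2.61, and *MRPL41*, 1.83) and 2 lower (*MRPS25*, -1.37, and *MRPS14*, -0.66), in CSN48-1 9 of 11 were higher and 1 lower (median 1.92), and in CSN48-2 4 of 6 were higher and 1 lower (median 1.57), where 29.3, 37 and 28.2% of all genes were higher. A gene could pass through the group in which it was high, so these counts and medians say little of the list. Over all 75 genes, the summed level was 3542 CPM in CSN24, 4439 in CSN48-1, 3225 in CSN48-2 and 2149 in Ctrl. Of 45 genes of ribosome biogenesis, between 1 and 3 were tested. Of the 5 ribosomal proteins outside the rule, 0 passed 1.5-fold in CSN24. *RACK1*, a scaffold on the small subunit that is also in the first of these lists, was higher in CSN48-1 (0.64) and CSN48-2 (0.64), and *faub*, which codes for a fusion to a small subunit protein, was lower in CSN48-1 (-0.83) and higher in CSN48-2 (1.098). The medians of members and of these lists rest on the same pooled wells and are descriptions only.

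Pooled by group, the other wells gave members a smaller share of their counts than ins-high wells. The pooled share in other wells was 4.35% in CSN24, 4.48% in CSN48-1, 3.91% in CSN48-2 and 2.89% in Ctrl, between 0.533 and 0.697 times that of the ins-high wells of the same group. The value of Ctrl rests on 3 of its 6 wells, with 0.190% pooled, and the 3 endocrine wells of Ctrl had 5.37%, against 5.42% in Ctrl ins-high wells. Without wells under 50000 counts, the log2 ratio of other to ins-high wells was -0.57 in CSN48-1 and -0.52 in CSN48-2. By kind of well, it was 4.10% (interval 4.09 to 4.11%) in pigment-gene wells, 3.81% (3.801 to 3.825%) in endocrine wells, 7.93% (7.84 to 8.03%) in shallow wells, among them the *RPL6* well described last, and 4.64% (4.62 to 4.65%) in the rest, against 5.86% in all ins-high wells. Their median wells had 3.46, 3.44, 3.90 and 4.87%, against 5.49% in ins-high wells. Pigment-gene and endocrine wells had more members at 100 CPM or more, at a lower level. The medians were 41 members in pigment-gene wells and 39 in endocrine wells, at 574 and 615 CPM, against 30 members at 1203 CPM in ins-high wells of all groups. The pigment-gene wells were all of the 48-h sets, where ins-high wells had 35 members at 1150 CPM in CSN48-1 and 31 at 1119 CPM in CSN48-2.

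In CSN48-1 other over ins-high wells, 46 of 81 members were over 1.5-fold lower, against 47.7% of 1684 genes, and 5 were higher, against 32.5%. In CSN48-2, 44 of 81 were lower, against 52.4% of 1252 genes, and 5 were higher, against 25.7%. The median of members was -0.67 in CSN48-1 and -0.66 in CSN48-2, and that of all genes was -0.44 and -0.66. *rps27l*, which in human cells is induced by p53, had 133.1 CPM in other wells and 494 in ins-high wells of CSN48-1, and 44.4 and 299 CPM in CSN48-2. *RPL22L1* had 53.5 CPM in other wells and 232 in ins-high wells of CSN48-1. The members higher in other wells included *RPL6*, *RPS24* and *RPL24* in CSN48-1 (0.79 to 0.90) and *RPLP0*, *rps27.2*, *RPS10*, *RPS9* and *RPS6* in CSN48-2 (0.65 to 1.47). Among them, *RPLP0* had 581 CPM against 208.6 CPM in CSN48-2. The value of *RPL6* includes the shallow CSN48-1 well described last, with 79.5% of its 17374 counts on members and 98.9% of these on *RPL6*. Without the well with the most counts of each gene, 57 members were lower and 2 higher in CSN48-1, and 60 and 2 in CSN48-2. The share over all genes was not computed in this way, so these counts are not read as particular to members.

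A few deep wells gave members a very small share of their counts. Of the 613 wells with at least 50000 counts, 7 gave members under 1%: 4 Ctrl wells with 0.0472, 0.177, 0.296 and 0.533%, a CSN24 well with 0.0978% and 2 CSN48-1 wells with 0.592 and 0.825%. Heat shock genes took between 2.96 and 30.1% of their counts (median 20.4%), against a median of 6.85% in the other 606 wells, and *malat1*, a nuclear long noncoding RNA, took a median of 12.0% against 3.64%. Mitochondrial protein-coding genes took a median of 26.3% against 11.7%. Of the 606 wells, 489 had a heat shock share at or above the lowest of the 7. Group also enters, as 4 of the 7 are Ctrl wells and Ctrl ins-high wells had a median heat shock share of 14.4%. The 7 wells had 61 to 75 members with at least 1 count, against a median of 68 in the 606. The count of members detected thus did not set them apart. What these cells are was not tested. Over ins-high wells as a whole, the share of members and that of heat shock genes had Spearman correlations between -0.25 and -0.06 within the 4 groups, as a description of wells that share a library plate.

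In 6 other wells a single member held over 50% of the counts on members, namely *RPS2* (50.3%), *rplp2l* (87.1%), *RPL39* (88.9%), *RPS29* (89.8%), *RPS19* (91.8%) and *RPL6* (98.9%). The *RPL39* and *RPS19* wells were also among the deep wells with a very small share described above. The *RPL6* well, a CSN48-1 well with 17374 counts on genes, had the largest share of all, with 79.5% of its counts on members. It raised the pooled share of the 15 shallow wells of CSN48-1 to 11.1%, against a median of 4.30% among them. The largest share in an ins-high well was 17.6%, in CSN48-1, where *RPL7* led with 8.98% of the counts on members.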

How the data were processed

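Per the deposited table, values are raw counts of reads per gene and well, with no normalization. The authors' processing notes name bcl2fastq 2.19.1, GSNAP 2019-06-10, featureCounts 2.0.1 and the zebrafish genome GRCz11 with Ensembl release 95; reads carry no molecular identifiers. The authors also deposited the exon length of each gene in bases, which was used for levels per kb and overlaps. Shares are percentages of all counts on genes without the 92 spike-in RNAs, with exact (Clopper-Pearson) 95% intervals, and CPM carry exact Poisson 95% intervals. These cover counting error only. Depth ran from 1486 to 1084018 counts per kept well.

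The 540 ins-high wells are 136 of CSN24, 70 of CSN48-1, 169 of CSN48-2 and 165 of Ctrl. Each group is 1 sample, so wells were pooled and no test was run. A gene was compared where at least 25% of the wells of either group had a count, and a change is named past 1.5-fold on the log2(CPM + 1) scale. The pooled ratios were tested on simulated data. Members and lists were chosen with earlier results of these data known. Genes named by rule are the 10 members most abundant in Ctrl and the 5 largest rises and falls of each comparison with Ctrl; copies and others are named in addition. The limit of 100 CPM, the heat shock list, and the alternatives without the top well of each gene, without wells under 1% and without heat shock genes were chosen after seeing the data. Other settings changed the total, the weight and filters of wells, thinning, centring, the fold, the pseudocount, the members and the scale. Wells over 40% mitochondrial counts were left out, as were 4 wells with no group. Scripts ran in Python 3.11.15 (pandas 2.3.3, NumPy 2.4.6, Matplotlib 3.10.9, SciPy 1.17.1). Some members that meet the naming rule are not reported here.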

Additional observations from a re-analysis of the deposited data

Results flagged for a closer look

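*RPLP0* in ins-high wells moved in opposite directions in the 48-h sets, with a log2 ratio to Ctrl of 1.02 in CSN48-1 and -0.99 in CSN48-2. *RPL22* did so between CSN24 (0.65) and CSN48-2 (-0.96), and 0.56 and -1.03 without the top well of each group. Neither difference was tested, since each group is 1 sample.

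Wells that the labels put in no group also held counts on members. A well labelled NC on plate 1 gave them 5.06% of 3617 counts (interval 4.37 to 5.82%), close to the share in cells, with 52 members counted and 314 counts of *ins*. The wells labelled RNA gave 7.67% on plate 1 (7.46 to 7.88%, 60608 counts), 6.74% on plate 2 (6.51 to 6.97%, 45492 counts) and 8.16% on plate 3 (7.92 to 8.41%, 48071 counts), with 77, 72 and 69 members counted. What these labels mean is not stated in the sources used here.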

How the results depend on the processing

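Values are log2 ratios of the members' share, in the order CSN24, CSN48-1 and CSN48-2 over Ctrl and then other over ins-high wells of CSN48-1 and of CSN48-2. The values of the report are 0.26, 0.27, 0.05, -0.55 and -0.52. Per spike-in count they were -0.76, -0.999, -0.50, -2.58 and -4.42, which turned all 3 comparisons with Ctrl. Counts on genes as a whole were also fewer per spike-in in the median ins-high well of these 3 groups than in that of Ctrl. The values for other wells include shallow wells, which had 0.0734 member counts per spike-in count in CSN48-1 and 0.0160 in CSN48-2. The pigment-gene, endocrine and remaining other wells had 42.2, 42.9 and 13.6 in CSN48-2, against 20.1 in ins-high wells. In CSN48-1 these kinds of wells had 6.95, 28.4 and 30.2, against 14.2 in ins-high wells. Pigment-gene wells were not divided by depth, and 24 of the 26 in CSN48-1 had 50000 counts or more. Their totals ran down to 4624 counts, and spike-ins took up to 66.9% of counts on genes and spike-ins, so the value of 6.95 includes such wells. Centred on the median of all genes tested, the log2 ratios were 0.17, 0.029, 0.0040, -0.11 and 0.14, which turned the last. Without heat shock genes in the total they were 0.13, 0.12, -0.085, -0.56 and -0.57, which turned CSN48-2. Without mitochondrial genes they were 0.33, 0.33, 0.15, -0.45 and -0.47, and without *ins* as well 0.38, 0.37, 0.17, -0.70 and -0.69. As means over wells they were 0.25, 0.29, 0.040, -0.22 and -0.55. At most 20% mitochondrial counts gave 0.27, 0.26, 0.032, -0.57 and -0.64, at least 1000 genes 0.24, 0.28, 0.034, -0.56 and -0.35, and *ins* over 10000 counts 0.26, 0.29, 0.037, -0.55 and -0.41. Thinning to 50000 counts gave 0.24, 0.29, 0.045, -0.54 and -0.63, wells of 50000 counts or more -0.57 in other CSN48-1 wells, and core subunits alone 0.26, 0.26, 0.044 and -0.54 in the first 4. Leaving out wells under 1% gave 0.27 in CSN48-1, 0.044 in CSN48-2 and -0.46 in other CSN48-1 wells, and pooling both 48-h sets 0.11 over Ctrl and -0.45 in other wells.

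Of members over 1.5-fold higher (20, 19 and 9), centring left 11, 9 and 5, a 2-fold limit 3, 6 and 0, and heat shock genes left out of the total 9 in CSN24 and 4 in CSN48-2. Without the top well of each gene 13 were higher in CSN24, and with both 48-h sets pooled 10 were higher over Ctrl. Of those lower (3, 2 and 6), 1 and 3 stayed in CSN24 and CSN48-2 without mitochondrial genes, with or without *ins*; a 2-fold limit gave 1, 0 and 1, means over wells 1 in CSN48-1, centring 4 in CSN48-1, heat shock genes left out 11 in CSN48-2, and the pooled sets 2. The other 79 counts stayed within 1.5 times, some of them at exactly 1.5. Shares over all genes were not computed under these alternative settings. The causes were not tested. No paired analysis was possible because the result comes from no test and each group is 1 sample, so no replicate could be left out either. Depth limits detection: members at 0 in a well may be present below it.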
